A study of Mus musculus with 3 samples.

Results

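The gp130 JAK-STAT3 pathway was followed by 9 genes: the cytokine genes Lif and Il6, the receptor genes Il6st, Lifr, Osmr and Cntfr, the kinase gene Jak1, the transcription factor gene Stat3 and the inhibitor gene Socs3. Every probe whose gene name in the array files was one of these was taken, which gave 14 of the 41174 probes other than controls and 8 of the 9 genes. No probe carried the name Lif. Two-colour Agilent arrays, 3 in number and 1 per biological replicate, compared mouse neural stem cells (NSCs) of genotype Dnmt3a-/- (KO) with wild-type (WT) NSCs. Both kinds of NSC were derived from embryonic stem cells, passed through neurospheres and grown as attached cultures with EGF and bFGF, and no cytokine of the gp130 family is named in the culture protocol. The KO RNA carried Cy3 and the WT RNA Cy5 on each array, and the dyes were not swapped on any array, so a dye preference of a single probe cannot be told apart from genotype. The labels do not give the deleted part of Dnmt3a, the number of cell lines or how the replicates were separated, so p-values measure only the spread between these samples.

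Cytokines of this family bring together receptor chains that share gp130, the protein of Il6st. gp130 pairs with itself for interleukin 6, with the protein of Lifr for leukemia inhibitory factor (LIF), with Lifr and the non-signalling chain of Cntfr for ciliary neurotrophic factor, and with the protein of Osmr for oncostatin M. The bound kinase JAK1 then phosphorylates STAT3, which enters the nucleus and switches on genes that include Socs3, whose product blocks the receptor and the kinase. In the developing brain this signal drives neural stem cells toward astrocytes. Methylation of a STAT3 element in the promoter of Gfap, an astrocyte filament gene, is known to block STAT3 binding in early neural precursors.

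Values are log2 ratios of RNA labelled KO over RNA labelled WT after background correction and loess, a smoothing that removes the trend of the ratio with brightness. Testing was limited to probes well above background in the same channel on all 3 arrays, and a Benjamini-Hochberg adjusted p under 0.05 over all 26668 tested probes, from limma, was the threshold. The share of probes well above background was 63.6% to 65.0% per array for KO RNA and 65.6% to 68.8% for WT RNA. Dnmt3a itself went against its label, since its 3 probes were higher in the RNA labelled KO, at 0.61 ± 0.03, 0.76 ± 0.04 and 0.99 ± 0.08 (SD, n = 3 arrays). The last of these was still at 0.54 when the arrays were centred on their medians without loess. Where the probes lie relative to the deleted part is not known, and the cause of the rise was not tested. Every direction given here would turn if the 2 channel labels had been exchanged. The labelled cell type was checked with 10 NSC markers, all of which were tested, and in the RNA labelled KO 2 rose, 6 fell and 2 missed the threshold.

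In the RNA labelled KO, Il6, Il6st, Osmr, Jak1, Stat3 and Socs3 were higher and Lifr was lower. Il6 stood at 0.65 ± 0.06, a size that ran between 0.091 and 1.91 with other background corrections, and Stat3 stood at 0.57 ± 0.02. The Lifr probes lay between -0.39 and -0.14. The one at -0.14 was tested only through the channel labelled WT, in which it is higher. It missed the threshold with the scanner's and the authors' values, among other settings. Of the 13 tested probes, 8 were higher, 4 were lower, that Lifr probe included, and 1, that of Cntfr, was not past the threshold. Among all tested probes 44.3% were past it, 20.7% higher and 23.6% lower. The median absolute log2 ratio was 0.29 over the 13 member probes and 0.093 over all tested probes. Probes of 1 gene are not independent, and by the brightest probe of each gene 6 members were higher, 1 was lower and 1 was not past the threshold. Among all genes by their brightest probe 46.7% were past it, 21.9% higher and 24.8% lower. These directions hold relative to probes of like brightness. When the arrays were centred on their medians without loess, the bright probes of Il6st, Osmr, Jak1 and Socs3 turned negative, as described further down. Stat3 was then at 0.075 and not past the threshold.

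**Figure D1:**
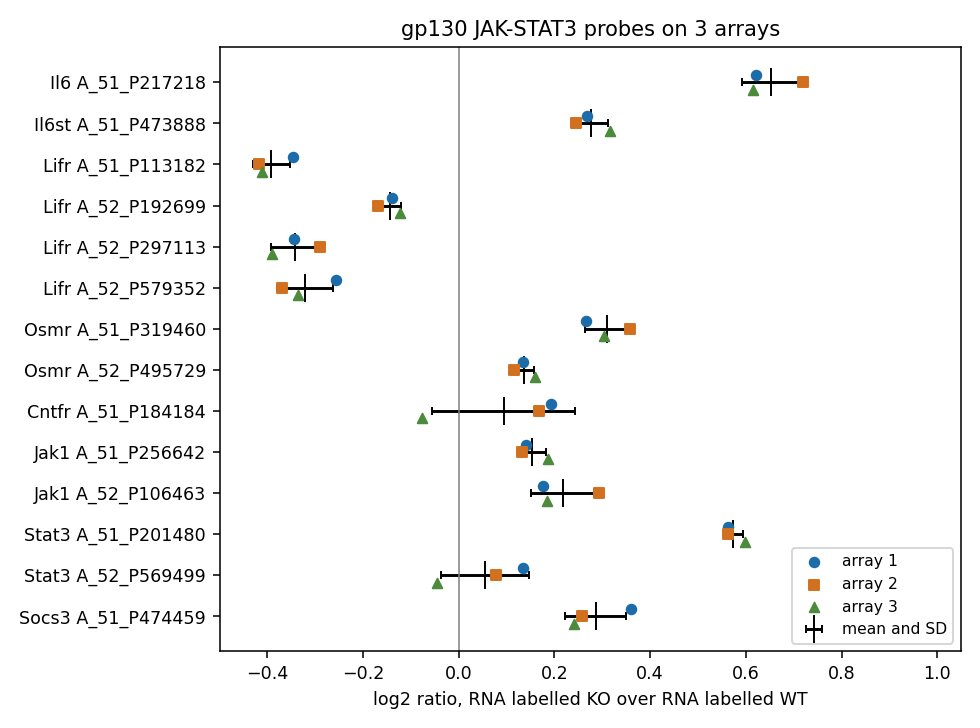
Log2 ratios of RNA labelled KO over RNA labelled WT after loess (horizontal axis) for the 14 member probes (vertical axis); points are the 3 arrays, and black marks give the mean and SD. The points of Il6 and of Stat3 A_51_P201480 all lie at 0.56 or more, those of Lifr all lie below 0, and those of Cntfr and of the second Stat3 probe lie on both sides of 0; with median centring alone the probes of Il6st, Cntfr, Jak1, Socs3 and the brighter Osmr probe lie below 0.

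The 4 Lifr probes cover separate stretches of chromosome 15, which is why sequences are shown. For 3 of them at least 1 reading frame of the printed strand was free of stop codons over the whole 60 bases. That does not show that a probe is coding, and whether each stretch lies in an exon was not examined. These 3 are given 5′ to 3′, as deposited, with positions on mouse build mm7. The 60 bases of the first are spread over 807 bases of the genome, chr15:7011508-7012314.
Lifr A_52_P579352: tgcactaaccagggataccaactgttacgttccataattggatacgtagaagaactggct
Lifr A_52_P192699: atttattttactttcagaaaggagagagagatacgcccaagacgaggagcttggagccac
Lifr A_52_P297113: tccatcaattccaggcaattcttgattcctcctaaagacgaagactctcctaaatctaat
The second lies at chr15:7012421-7012480 and the third at chr15:7017869-7017928. The fourth probe, A_51_P113182, lies next to the third at chr15:7017960-7018019 and had no stop-free frame.

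Il6 encodes interleukin 6, an inflammatory cytokine that acts on astrocytes and their precursors. Its probe, A_51_P217218 on chromosome 5 from 29052734 to 29052793 (mm7), was printed 10 times on each array. Its normalized log2 intensity was 6.85, 6.94 and 6.82 in the RNA labelled KO on arrays 1, 2 and 3, against 6.23, 6.22 and 6.20 in the RNA labelled WT. The groups did not overlap, which was also so for 42.9% of all tested probes. That share stands beside each like statement on the members that follow. The log2 ratio was 0.62, 0.72 and 0.61 on the 3 arrays, with a mean of 0.65 ± 0.06 (SD, n = 3) or 1.57-fold higher (limma, adjusted p = 5.1e-06), and 2.52% of tested probes had a larger absolute ratio. Single spots ranged from 0.46 to 0.75 on array 1, from 0.58 to 0.89 on array 2 and from 0.42 to 0.77 on array 3. All of these spots lay above 0. The Il6 probe was dim, and the size of its ratio, though not its direction, depended on the background correction, which here adds a constant of 50 to each signal. With a constant of 0 the mean was 1.41, with the scanner's processed signals 1.91 and with the background model fitted on all spots 0.091, each past the threshold.

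Il6st, the gene of gp130, was probed by A_51_P473888 on chromosome 13 from 109662276 to 109662335. Its log2 intensity was 11.68, 11.68 and 11.67 in the RNA labelled KO, against 11.41, 11.43 and 11.36 in the RNA labelled WT. The KO values differed by no more than 0.01 among themselves and lay above all WT values, while 42.9% of all tested probes had no overlap. The log2 ratio was 0.28 ± 0.04 (SD, n = 3), or 1.21-fold (limma, adjusted p = 0.00037), and it was -0.20 with median centring, where the probe was not past the threshold.

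Lifr encodes the LIF receptor chain, which LIF and ciliary neurotrophic factor both need. Its brightest probe, A_52_P579352, had log2 intensities of 7.52, 7.46 and 7.55 in the RNA labelled KO, against 7.78, 7.83 and 7.88 in the RNA labelled WT. The ratio was -0.32 ± 0.06 (SD, n = 3; limma, adjusted p = 0.00025), so that the signal was 1.25-fold higher in WT. Probe A_51_P113182 read 7.41, 7.42 and 7.39 in the RNA labelled KO, against 7.76, 7.84 and 7.80 in the RNA labelled WT. Its ratio was -0.39 ± 0.04, the lowest of the 14 probes. Probe A_52_P297113, which lies beside it, was at -0.34 ± 0.05. The dimmest, A_52_P192699, was at -0.14 ± 0.02 and was well above background on 2 of 3 arrays in the channel labelled KO. It was therefore tested only through the channel labelled WT, in which it is higher. A stricter filter that asked for both channels on all 3 arrays left it out, and 3 member probes were then lower. For none of the 4 Lifr probes did the KO and WT intensities overlap, as was so for 42.9% of all tested probes. The mean of the 4 was -0.27, -0.31 and -0.32 on arrays 1, 2 and 3. With median centring all 4 were still below 0, but A_52_P192699, at -0.01, was then not past the threshold. That probe also missed it with the scanner's processed signals (limma, adjusted p = 0.094) and the authors' deposited values (adjusted p = 0.087). With the background model fitted on all spots A_52_P579352 was at -0.09 and A_51_P113182 at -0.10, both still past the threshold. In that setting A_52_P297113 was at -0.07 (adjusted p = 0.063) and A_52_P192699 at -0.01 (adjusted p = 0.26), neither past it.

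Osmr encodes the chain that pairs with gp130 for oncostatin M. Its brighter probe, A_51_P319460 on chromosome 15 from 6640492 to 6640433, read 11.46, 11.45 and 11.46 in the RNA labelled KO, against 11.19, 11.09 and 11.15 in the RNA labelled WT. The groups did not overlap, as was so for 42.9% of all tested probes. The log2 ratio was 0.31 ± 0.05 (SD, n = 3), with a limma adjusted p of 0.00024, though -0.16 and not past the threshold with median centring. The dimmer Osmr probe, A_52_P495729 from 6641849 to 6641790, was at 0.14 ± 0.02 (adjusted p = 0.011) and at 0.088 with median centring. It was not past the threshold without replicate 3 (adjusted p = 0.081) or with the background model fitted on all spots (adjusted p = 0.16).

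Osmr and Lifr are neighbours on chromosome 15, with no other protein-coding gene listed between them in the RefSeq annotation of build GRCm38. After loess they moved in opposite directions. The ratio of Osmr's brighter probe exceeded the mean of the Lifr probes by 0.54, 0.67 and 0.62 on the 3 arrays, with a mean of 0.61 ± 0.07 (SD, n = 3). With median centring that difference was 0.26, but both then lay below 0, Osmr's brighter probe at -0.16 and the mean of the Lifr probes at -0.42. The ratio of Il6st exceeded that of Lifr by 0.58 ± 0.05, and by 0.22 with median centring. These differences were picked after their values were known and are given without a test.

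Cntfr encodes the membrane-anchored chain that binds ciliary neurotrophic factor. Its probe, A_51_P184184 on chromosome 4 from 41796099 to 41796040, read 8.94, 8.89 and 8.74 in the RNA labelled KO, against 8.74, 8.73 and 8.82 in the RNA labelled WT. Arrays 1 and 2 were higher in KO and array 3 was lower. The mean ratio was 0.094 ± 0.15 (SD, n = 3; limma, adjusted p = 0.19). Without replicate 3 it was 0.18 and past the threshold (adjusted p = 0.023), and with median centring it was -0.26 (adjusted p = 0.033).

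Jak1 encodes the main kinase bound to gp130. Probe A_52_P106463, on chromosome 4 from 100528987 to 100528928, read 12.40, 12.33 and 12.31 in the RNA labelled KO, against 12.23, 12.04 and 12.12 in the RNA labelled WT. The KO values lay above the WT values, without overlap as in 42.9% of all tested probes. The ratio was 0.22 ± 0.07 (SD, n = 3), with a limma adjusted p of 0.0022, but -0.29 with median centring. The other Jak1 probe, A_51_P256642 from 100529687 to 100529628, was at 0.15 ± 0.03 (adjusted p = 0.0072), and at -0.35 and past the threshold in the other direction with median centring. Neither Jak1 probe was past the threshold with the scanner's processed signals or with the authors' deposited values. By brightest probe Jak1 had the smallest absolute ratio of the 7 called members.

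Stat3, which encodes the factor that carries the signal to the nucleus, was measured by a bright probe printed 10 times, A_51_P201480 on chromosome 11 from 100997382 to 100997323. Its log2 intensity was 12.25, 12.26 and 12.28 in the RNA labelled KO, against 11.69, 11.69 and 11.69 in the RNA labelled WT. The log2 ratio was 0.56, 0.56 and 0.60, with a mean of 0.57 ± 0.02 (SD, n = 3) or 1.49-fold higher (limma, adjusted p = 5.7e-06), and 3.35% of tested probes had a larger absolute ratio. With median centring the ratio was 0.075 and not past the threshold. Single spots ranged from 0.50 to 0.63 on array 1, from 0.46 to 0.63 on array 2 and from 0.48 to 0.68 on array 3, so each of the 30 spots was above 0 after loess. A second Stat3 probe, A_52_P569499 from 100994246 to 100994187, did not clear background on any array, in KO or WT RNA, and was not tested; it read 6.03 ± 0.09 in the RNA labelled KO and 5.98 ± 0.01 in the RNA labelled WT.

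**Figure D2:**
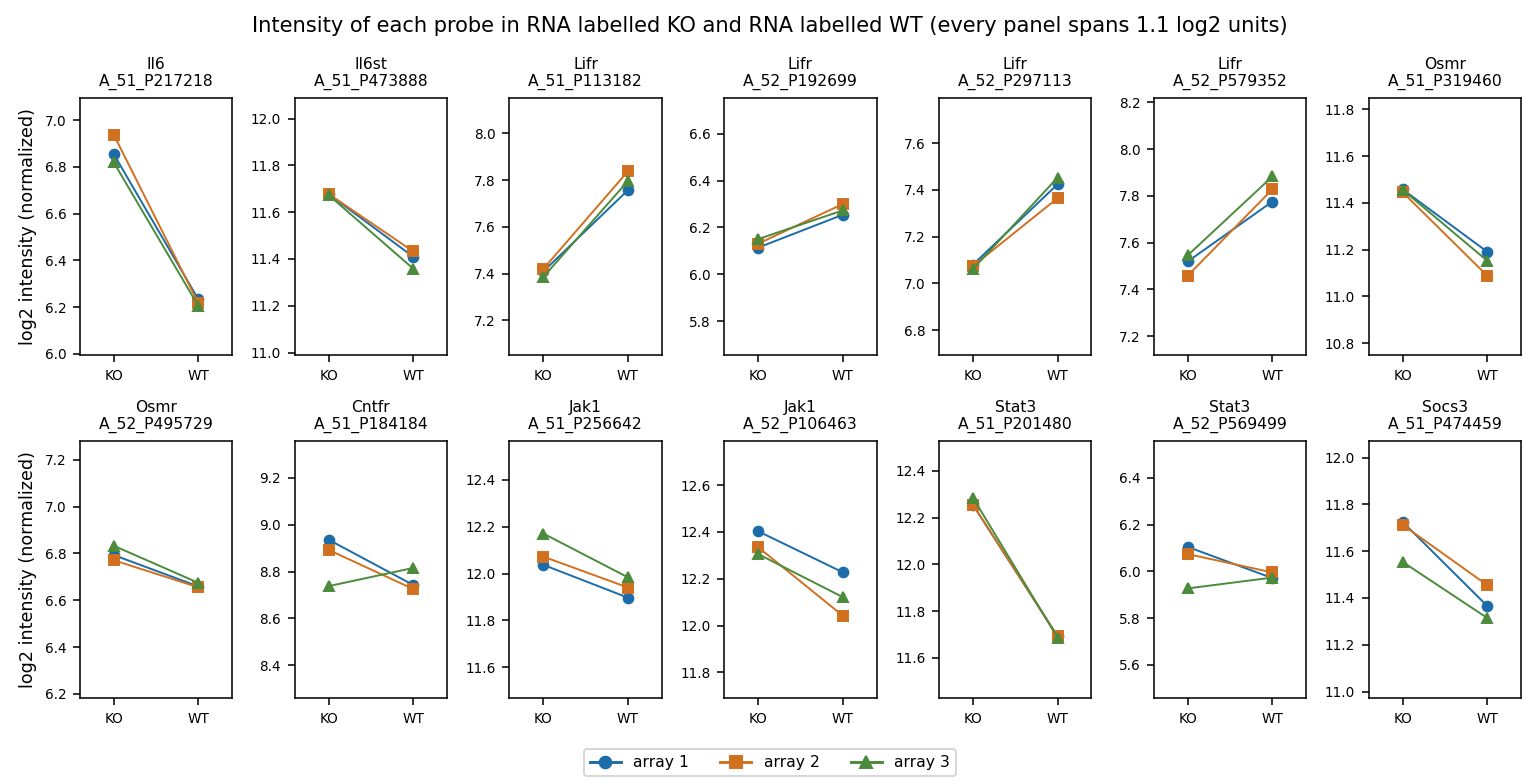
Normalized log2 intensity (vertical axis) of each member probe in the RNA labelled KO (left) and the RNA labelled WT (right); lines join the channels of an array, and panels span the same number of log2 units around different centres. Stat3 A_51_P201480 stands at 12.26 in KO and 11.69 in WT on average, Il6 at 6.87 and 6.22, and Lifr A_51_P113182 at 7.41 and 7.80; levels of different probes are not comparable, and the slopes hold after loess.

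Socs3 encodes the feedback inhibitor that STAT3 induces. Its probe, A_51_P474459 on chromosome 11 from 118075270 to 118075211, read 11.73, 11.71 and 11.55 in the RNA labelled KO, against 11.37, 11.45 and 11.31 in the RNA labelled WT. The lowest KO value, on array 3, was still above the highest WT value, on array 2, while 42.9% of all tested probes had no overlap. The ratio was 0.29 ± 0.06 (SD, n = 3), or 1.22-fold (limma, adjusted p = 0.00051), and -0.19, not past the threshold, with median centring.

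Promoters of the members were searched for TTCNNNGAA, the palindromic core that STAT factors bind, in the RefSeq windows of 250 bases before to 50 bases after each gene's start (build GRCm38.p6). All 9 members had at least 1 window, 15 in all, and only that of Socs3 held a match, which begins 154 bases before the start. Of all 32851 such windows 8.30% held one. The 250 bases before the Socs3 start, chr11:117969367-117969616 on the minus strand, are printed with that match in capitals. Socs3 is a known direct STAT3 target, and whether other members are was not examined here.
Socs3: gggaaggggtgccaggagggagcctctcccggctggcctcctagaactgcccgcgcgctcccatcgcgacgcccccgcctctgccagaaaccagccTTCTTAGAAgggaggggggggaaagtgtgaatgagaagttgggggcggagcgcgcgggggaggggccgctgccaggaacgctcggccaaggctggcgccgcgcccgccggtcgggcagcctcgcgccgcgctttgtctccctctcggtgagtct
The windows also differed in CpG pairs, the sites that Dnmt3a can methylate, with 3 in that of Il6, 31 in that of Socs3, 15 in that of Stat3 and 53 and 4 in the 2 windows of Lifr, against a median of 7 over all windows. The motif was chosen with the members' values known, a match is not evidence of binding, and methylation was not measured here.

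**Figure D3:**
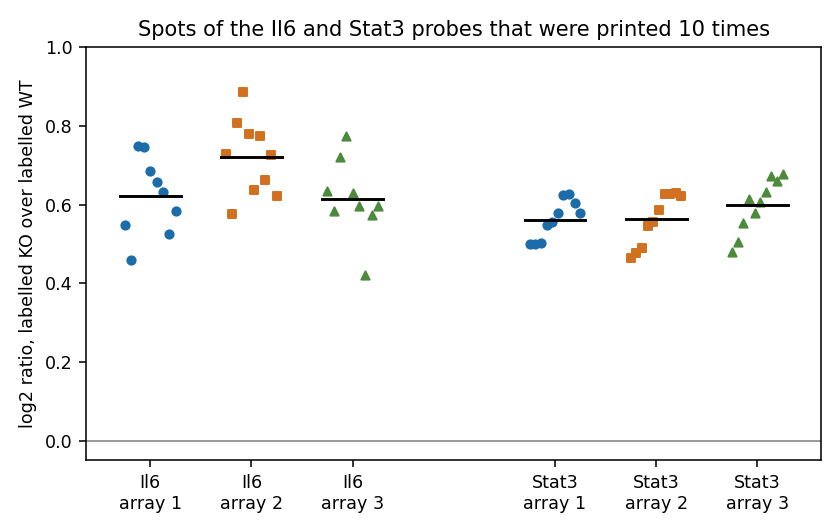
Log2 ratio of RNA labelled KO over RNA labelled WT after loess (vertical axis) for the single spots of the Il6 and Stat3 probes on each array (horizontal axis), in order of feature number, with the mean as a bar; 9 or 10 spots remained per array. All spots lie between 0.42 and 0.89, and those of Stat3 lie higher toward the end of the print order on each array; with median centring the mean of Stat3 is 0.075.

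The repeated spots also gave the part of the error that belongs to the place of a spot on the array. Over the 57 probes printed 10 times with an average log2 intensity of at least 10, the median SD between spots of 1 array was 0.067. Averaging each spot over the 3 arrays left an SD of 0.064, where independent errors would have left 0.039. The same spots were high or low on each array, with a median correlation of 0.91 between arrays over the spots of a probe, a description over spots that share their position. For Stat3 the last 5 spots in print order exceeded the first 5 by 0.10. A member with a single bright spot, such as Il6st, Osmr, Jak1 or Socs3, therefore carries a position error that the SD between arrays and the limma p do not contain, while the mean of Stat3 is taken over 10 positions.

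The trend that loess removed was larger than most of the members' ratios. Without loess, and centred on each array's median, the median ratio of tested probes was 0.082 at an average log2 intensity near 6.25 and -0.51 near 12.25. Relative to the tested probes within 0.5 log2 units of their own brightness, Stat3 stood 0.56 higher, Osmr's brighter probe 0.31, Socs3 0.29, Il6st 0.28 and the Jak1 probes 0.21 and 0.14 higher. Il6 stood 0.63 above its neighbours in brightness, while the Lifr probes stood at -0.39, -0.35, -0.31 and -0.07. This subtraction removes the same trend as loess does, so it is no independent check of the signs. Whether bright genes as a whole were lower in the RNA labelled KO or the Cy5 channel read bright spots higher cannot be told apart with 1 dye orientation.

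**Figure D4:**
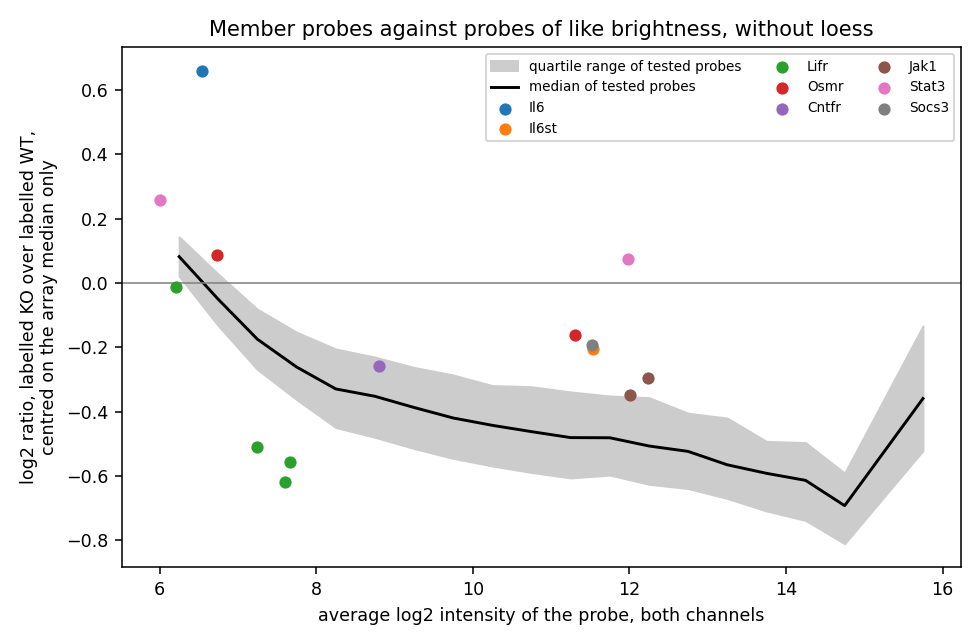
Log2 ratio of RNA labelled KO over RNA labelled WT centred on the array median only (vertical axis) against average log2 intensity (horizontal axis); the line and band are the median and quartile range of all tested probes in steps of brightness, and points are member probes. The bright probes of Stat3, Osmr, Socs3, Il6st and Jak1 lie above the band or at its upper edge although most of them lie below 0, and all 4 Lifr probes lie below the quartile range of their step of brightness.

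Genes around the members were taken from lists of the pathway, each gene by its brightest tested probe, and are read against the 21.9% higher and 24.8% lower among all genes and their median of -0.01. Across the 8 lists 18 genes were higher and 26 were lower, and with median centring 4 were higher and 51 lower. Of 8 tested other cytokines of the family or their partners, 2 were higher, 2 were lower and 4 were not past the threshold, with a median of -0.03. Ctf1, the gene of cardiotrophin 1, was at 0.32 ± 0.05. Osm, the gene of oncostatin M, was at -0.13 ± 0.06 and Il11 at -0.11 ± 0.06. The probes of Ctf1, Osm and Il11 were dim, with mean log2 intensities of 6.51 to 7.15 in KO and 6.64 to 7.02 in WT. As for Il6, the background correction bears on the size of such ratios. Of 4 tested other receptor genes, 2 were lower and 2 were not past the threshold. Il11ra1, the interleukin 11 receptor chain that signals through gp130, was at -0.67 ± 0.03 (limma, adjusted p = 2.7e-06), and at -1.27 with median centring. Il27ra was at -0.15 ± 0.06, and at -0.06 with median centring. Its dim probe was well above background on 2 arrays in the channel labelled KO and 3 in that labelled WT. It was therefore tested only through the channel in which it is higher. The interleukin 6 receptor chain gene Il6ra, at 0.03, was not past the threshold.

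After loess Stat6 and Stat5b were lower, opposite to Stat3. Of 8 tested genes of other JAK kinases and STAT factors, 2 were higher, 4 were lower and 2 were not past the threshold, with a median of -0.08. Stat6, the factor of interleukin 4, was at -0.36 ± 0.06 and Stat5b, a factor of growth hormone and cytokine signals, at -0.30 ± 0.01. Jak3, a kinase of lymphoid cytokine receptors, was at 0.30 ± 0.07 and kept its sign with median centring. Its probe was dim, at a mean log2 intensity of 6.91 in KO and 6.61 in WT. Stat5b, Stat5a and Stat3 are neighbours on chromosome 11 with no other protein-coding gene listed between them. After loess they stood at -0.30, 0.09 and 0.57, with Stat5a not past the threshold (limma, adjusted p = 0.16). With median centring they stood at -0.76, -0.27 and 0.075, and Stat3 was then not past the threshold.

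Of 14 inhibitors of the pathway other than Socs3, 2 were higher, 4 were lower and 8 were not past the threshold, with a median of -0.06. Socs1, an inhibitor related to Socs3 and induced by interferon, was at -0.37 ± 0.03, Socs4 at -0.28 ± 0.09 and the phosphatase gene Ptpn2 at -0.20 ± 0.05. Cish, a STAT5 target of the same family, was at 0.21 ± 0.01, though at -0.17 with median centring. Of 11 tested genes that pass the gp130 signal to the ERK pathway, 3 were higher and 3 were lower. The adaptor gene Shc1 was at 0.35 ± 0.03 and the ERK1 gene Mapk3 at 0.20 ± 0.04, at -0.05 and -0.24 with median centring, and the adaptor gene Gab1 was at -0.32 ± 0.09. Sos1, a Ras exchange factor gene, was at 0.15 ± 0.06.

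After loess, acute target genes of STAT3 rose in 7 of 13 tested cases, fell in 1 and missed the threshold in 5, with a median of 0.20. The share of higher genes was thus above the 21.9% of all genes and the share of lower genes below 24.8%. This list, like the others, was chosen with earlier results of these data known. Lcn2, which encodes the iron-carrier-binding protein lipocalin 2, was at 1.67, 1.62 and 1.43 on the 3 arrays, a mean of 1.57 ± 0.13 or 2.97-fold higher (limma, adjusted p = 2.4e-07). Cebpd, a transcription factor gene of the acute phase, was at 0.85 ± 0.08 and Bcl3, a gene of the I-kappaB family, at 0.65 ± 0.03. These 3 kept their sign with median centring, at 1.33, 0.29 and 0.20. The other genes called higher then lay between -0.33 and 0.002, so the excess of higher genes in this list depends on loess. Icam1, an adhesion molecule gene, was the lower one, at -0.57 ± 0.01. Several genes of this list also answer to NF-kappaB and other factors, and no part of their change was assigned to STAT3.

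**Figure D5:**
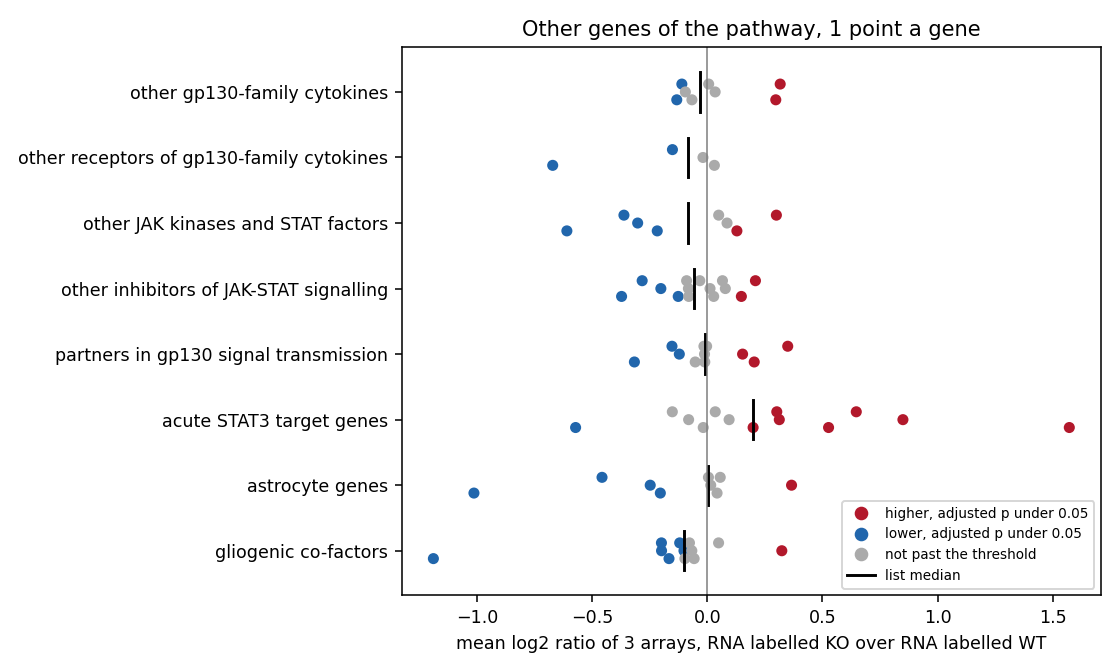
Mean log2 ratio of RNA labelled KO over RNA labelled WT (horizontal axis) for each tested gene of 8 pathway lists (rows), coloured by limma's adjusted p, with the list median as a bar. Acute STAT3 target genes have 7 higher and 1 lower gene and a median of 0.20, and gliogenic co-factors have 1 higher and 6 lower and a median of -0.10; with median centring 4 genes of all lists are higher and 51 lower.

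Astrocyte genes, the late readout of this pathway in neural precursors, rose in 1 of 9 tested cases, fell in 4 and missed the threshold in 4, with a median of 0.01. The Gfap signal did not clear background on any array, in KO or WT RNA. Aldh1l1, a folate enzyme gene used as an astrocyte marker, was at -1.01 ± 0.06, the glycolytic gene Aldoc at -0.46 ± 0.08 and the glutamate transporter gene Slc1a2 at -0.25 ± 0.11. The Slc1a2 probe was dim, at a mean log2 intensity of 6.35 in KO and 6.60 in WT. Cd44, a hyaluronan receptor gene of astrocyte precursors, was at 0.37 ± 0.04, though at -0.06 with median centring. Of 12 genes of factors that act with STAT3 in making astrocytes, 1 rose, 6 fell and 5 missed the threshold. Sox9, a glial fate gene, was at -1.19 ± 0.06 (limma, adjusted p = 2.3e-07), Bmpr1a, a BMP receptor gene, at -0.20 ± 0.12 and Nfib at -0.20 ± 0.04. Nfix was at 0.32 ± 0.08, and at -0.05 with median centring. Fewer cells of a type and less RNA per cell cannot be told apart in these bulk samples.

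Among markers of other cells, those of fibroblasts differed in the largest number. Of these 7, all tested, 1 rose and 5 fell in the RNA labelled KO, and their summed intensity, on the log2 scale, was 17.2 to 17.3 in KO and 17.6 to 17.8 in WT. Their mean log2 intensities were high in both channels, from 10.43 to 15.56 in KO and from 10.16 to 15.56 in WT. The NSC markers had sums of 15.7 to 15.8 in KO and 15.9 to 16.0 in WT. Levels of different probes are not comparable, so the sums do not give shares of cells. Of 7 microglia and macrophage markers 3 were tested, with 1 higher, and Ptprc and Adgre1 were not well above background in any channel, with sums of 7.91 to 7.92 in KO and 7.82 to 7.86 in WT. Of 5 endothelial markers 3 were tested and all 3 missed the threshold, Pecam1 and Cdh5 were not well above background in any channel, and sums were 8.35 to 8.47 in KO and 8.42 to 8.48 in WT. Of 6 neuronal markers 2 were lower, with sums of 10.2 in KO and 10.3 in WT. Of 6 embryonic stem cell markers 3 were tested and 1 was higher, Nanog and Zfp42 were not well above background in any channel, and sums were 8.46 to 8.57 in KO and 8.40 to 8.46 in WT. Whether other cells had a part in the members' ratios was not tested.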

How the data were processed

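Total RNA of KO and WT NSCs was amplified to Cy3 and Cy5 cRNA and hybridised to 3 two-colour arrays, per the labels' protocols. The deposited scanner files come from Agilent Feature Extraction 9.5.3.1, per the file headers. The deposited intensity values are spot means and background medians, and processed intensity values to which the scanner software had applied spatial and multiplicative detrending and a lowess dye correction, per the file headers. The scanner's own deposited log10 ratio, red over green, served to check direction. The authors' deposited value table followed it at r = -0.998, -0.996 and -0.992 and was read as a log2 ratio of KO over WT. Its sorted columns differed by at most 0.0026, and no source used here gives its centring or scaling.

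Spot means and local background medians were corrected with limma's normexp method (limma 3.58.1, R 4.3.3, offset 50), fitted on spots without outlier marks, then normalized by loess within array with control spots at weight 0. Control spots and 142, 150 and 210 marked spots were left out, saturated spots were kept, and spots of a probe were averaged. A probe counted as well above background on an array if over 50% of its spots were. The mean ratio was tested against 0 with lmFit and eBayes, two-sided, with 2 residual degrees of freedom per probe, and the code was tested on simulated data. Single-channel intensities are after loess and Aquantile. Genes of the lists were named through accession for 22951 probes and through symbol or synonym for 9768, while 8455 kept the name in the file. Named list genes are the 4 with the largest absolute mean ratio among those past the threshold, and Gfap, except that some genes the rule names are not reported here; Il6ra and Stat5a were added after their values were seen. The members and lists were chosen with earlier results of these data known. All 3 ratios pair KO and WT of 1 replicate number within an array. The number of arrays limits the precision. Promoter windows are RefSeq's.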

Additional observations from a re-analysis of the deposited data

How the results depend on the processing

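Alternatives were other background fits, the scanner's and the authors' values, median centring, filters, 1 value per gene, unpaired channels and leaving out each replicate. Median centring changed most. It moved the median of all tested probes to -0.22 and gave 1188 probes higher and 13346 lower, against 5518 and 6285, so that 8.17% of calls were higher against 46.8%. It left 1 member probe higher, that of Il6, and by brightest probe 1 member higher and 2 lower. It turned Il6st to -0.20, Osmr A_51_P319460 to -0.16, Cntfr to -0.26, the Jak1 probes to -0.35 and -0.29 and Socs3 to -0.19, and left 4 pathway list genes higher and 51 lower. With 1 dye orientation, dye and brightness cannot be told apart from genotype. Normexp fitted on all spots gave 2683 higher and 3660 lower probes and 2 lower member probes, and the cause was not tested. In the fit with no replicate block, which ignores that channels of an array are paired, 3650 probes were higher and 4073 lower, and the 8 higher and 4 lower member probes kept their calls. Leaving out a replicate gave 3996 to 5334 probes higher and 4554 to 5788 lower, and 7 or 8 member probes higher and 4 lower. Without replicate 3, Jak1 A_51_P256642 lost its call (adjusted p = 0.061). The brightness of the Il6 and Lifr probes, near background, limits the size of their ratios.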

Other observations

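A pair of probes outside the gene-name rule bear on the members. Probe A_51_P306109, whose description names leukemia inhibitory factor, stood at -0.05, 0.06 and -0.05 on arrays 1, 2 and 3, a mean of -0.01 ± 0.06 (SD, n = 3; limma, adjusted p = 0.80), on chromosome 11 from 4226323 to 4226382 (mm7). Its signal cleared background on all 3 arrays for KO and WT RNA. Probe A_52_P438170, named A230075M04Rik in the files and matched to Lifr through a synonym, lay on chromosome 15 from 7022201 to 7022260. It stood at -0.20, -0.29 and -0.25, a mean of -0.25 ± 0.05 (adjusted p = 0.00083), lower in the RNA labelled KO like the Lifr probes of the rule. Both were picked after their values were known.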
